A study of Homo sapiens with 6 samples.

Results

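The 10 genes described here are the rows of the deposited count table named YAP1, WWTR1, TEAD1, TEAD2, TEAD3, TEAD4, LATS1, LATS2, AMOTL2 and ANKRD1, out of 20030 gene names. They were chosen by name and with earlier results of these data known. The list holds kinases of the Hippo pathway, its coactivators and their DNA-binding partners, and target genes. All 10 passed the filter on low counts. They were measured in KGN, an established human cell line derived from a tumour of ovarian granulosa cells, by sequencing of mRNA libraries 48 h after transfection. The groups were 3 libraries of cells given siRNA against SNHG5, a long noncoding RNA (genotype labelled SNHG5 knockdown), and 3 libraries of cells given a negative control siRNA (genotype labelled WT). Both groups come from the same line and the same medium with serum, and the labels do not say whether the replicates were separate cultures, so each p measures the spread between these libraries only. The comparison asks which transcripts of the line differ when SNHG5 is targeted. SNHG5 itself was not analysed here.

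The Hippo pathway is a kinase cascade that limits organ growth. Its kinases LATS1 and LATS2 phosphorylate the coactivators YAP (gene YAP1) and TAZ (gene WWTR1), which keeps these in the cytoplasm or marks them for breakdown. Unphosphorylated YAP and TAZ enter the nucleus, bind the TEAD transcription factors and raise the transcription of target genes. In the ovary the pathway is known for its part in follicle growth. Its control is largely at the level of protein phosphorylation and location, which transcript counts do not measure. The tables also hold an entry named TAZ, which is a different gene from WWTR1 and was not used.

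With SNHG5 siRNA, ANKRD1 and AMOTL2, a pair of genes widely used as readouts of YAP and TEAD, fell 1.95-fold and 1.48-fold, while YAP1 itself rose 1.37-fold. Targets of YAP outside the 10 genes, described below, moved in both directions: CCN2 fell, IGFBP3 rose and CCN1 did not pass. LATS2, a kinase gene that is also known as a YAP target, rose 1.16-fold, and TEAD1 fell 1.14-fold. WWTR1, TEAD2, TEAD3, TEAD4 and LATS1 did not pass the test. In all, 2 of the 10 genes rose and 3 fell, so 5 passed, where 40.2% of the 12508 genes tested passed (20.3% higher and 19.9% lower). The share of the 10 genes that passed is thus near that of all genes. Without SNHG5 siRNA replicate 2, the library that stood furthest from the rest of its group, 4 of the 10 passed and 44.4% of all genes did. Their median log2 fold change was -0.0091 and that of all tested genes -0.0052. In 5 of the 10 genes (YAP1, TEAD4, LATS2, AMOTL2 and ANKRD1) the counts scaled to library size (CPM) of the groups did not overlap, against 49.8% of all tested genes. In bulk RNA, fewer cells of a kind and less RNA per cell cannot be told apart.

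**Figure D1:**
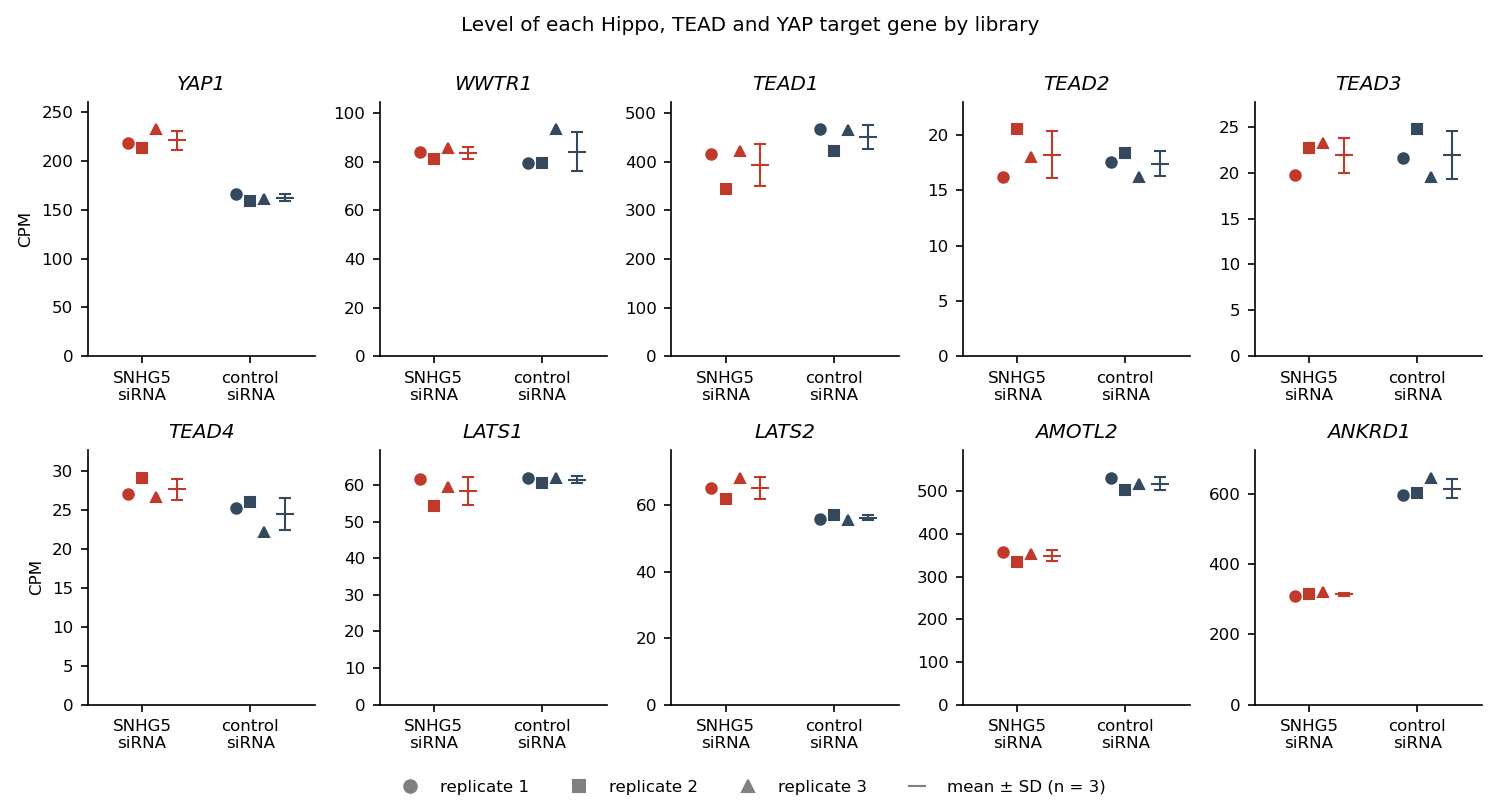
Level of each of the 10 genes in CPM (counts scaled to library size, axis from 0), one panel per gene, with 1 point per library and the mean ± SD (n = 3) beside them. ANKRD1 and AMOTL2 lie lower in every SNHG5 siRNA library than in any control siRNA library, YAP1 and LATS2 lie higher, and TEAD1 overlaps because of control siRNA replicate 2 (421 CPM) and SNHG5 siRNA replicate 3 (422 CPM).

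Total counts were 18232634 to 22088913 per library, so every one of the 10 genes had at least 295 counts in each library. SNHG5 siRNA replicate 2 differed most from libraries of its own group. The chi-square of counts over genes, divided by its degrees of freedom, was 8.35 and 8.57 for the pairs with this library, 1.9 for the remaining SNHG5 siRNA pair and 3.03 to 4.28 for control siRNA pairs. Of 13 granulosa markers, all had counts and 10 were tested, among them FOXL2 (28.6 and 25.3 mean CPM with SNHG5 siRNA and control siRNA), NR5A1 (38.4 and 35.9) and GATA4 (82.3 and 106). Of the 10, 2 rose and 4 fell, so 60% passed, where 40.2% of all genes did. The largest folds were in FSHR (2.21-fold lower), INHBB (2.14-fold higher) and NR5A2 (1.91-fold lower). FSHR (1.47 and 3.25 mean CPM with SNHG5 siRNA and control siRNA) and NR5A2 (1.45 and 2.78) were low. CYP19A1, INHA and AMHR2 stayed under 0.5 CPM on average in both groups. The summed granulosa marker level was 2660 to 2940 CPM with SNHG5 siRNA and 3540 to 3680 CPM with control siRNA, most of it from KRT18. Of markers of other cells, CYP17A1, INSL3, LHCGR, LUM, CDH5 and CD3E were at 0 in every library. Fibroblast markers summed to 4520 to 4830 CPM with SNHG5 siRNA and 5710 to 6050 CPM with control siRNA, most of it from COL1A1, which fell 1.3-fold while COL1A2 rose 1.53-fold. Endothelial markers summed to 15.3 to 18.3 and 32.1 to 36 CPM, most of it from KDR. Leukocyte markers summed to 27.4 to 29.1 and 22.3 to 26.3 CPM, most of it from CD68. Epithelial markers summed to 15.8 to 20.3 and 14.8 to 17.2 CPM, most of it from KRT19. Theca and steroid stroma markers summed to 19.2 to 24 and 18.1 to 20.3 CPM, all of it from STAR. In each case SNHG5 siRNA stands before control siRNA. The part of these markers in the results was not tested.

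YAP1 encodes the coactivator YAP (chromosome 11, 102110461 to 102233423, plus strand, protein coding; all coordinates of genes are GRCh38, GENCODE v29). It had 218, 213 and 232 CPM in SNHG5 siRNA replicates 1, 2 and 3, against 166, 159 and 161 CPM in control siRNA replicates 1, 2 and 3. All 3 SNHG5 siRNA libraries lay above all 3 control libraries, and the smallest gap between the groups was wider than the range within either. The log2 fold change of 0.45 ± 0.052 (SE) passed, and edgeR's quasi-likelihood test gave an adjusted p = 1.39e-06 (Benjamini-Hochberg adjustment over all genes tested). The exact 2-sided permutation test of the CPM gave p = 0.1, the smallest that 3 against 3 libraries allow.

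WWTR1 encodes TAZ, the paralog of YAP (chromosome 3, 149517235 to 149736714, minus strand). Its CPM were 83.9, 81 and 85.7 with SNHG5 siRNA and 79.5, 79.4 and 93.3 with control siRNA. The groups overlapped, with the highest library, control siRNA replicate 3, and the lowest, control siRNA replicate 2, in the same group. The log2 fold change was -0.0083 (95% interval -0.14 to 0.13, adjusted p = 0.932 by edgeR), and with 1 library left out its sign turned, at -0.048 to 0.072. Within a library, the ratio of WWTR1 to YAP1 counts was 0.385, 0.38 and 0.369 with SNHG5 siRNA and 0.48, 0.5 and 0.579 with control siRNA. This ratio does not depend on how libraries are scaled. It was lower in every SNHG5 siRNA library, by -0.455 on the log2 scale, with p = 0.1 by the exact 2-sided permutation test (0.175 adjusted over the 7 ratios, shares and sums compared here). GENCODE v29 lists an antisense gene with exons over those of YAP1 (AP000942.2) and of WWTR1 (WWTR1-AS1). Whether the counting used strand is not given in the sources used here, so reads of the antisense genes cannot be told apart from these counts.

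The TEAD proteins bind DNA and carry YAP and TAZ to their targets. Per length, on the authors' FPKM (scaled to length as well as to library size), TEAD1 was by far the most abundant of the family in both groups. The length implied by counts and FPKM was not fixed per gene. It averaged 10600 and 10200 bases for TEAD1 and 2110 and 2260 bases for TEAD4, with SNHG5 siRNA and control siRNA. The reason was not tested. TEAD1 had 39.6, 31.8 and 40.5 FPKM with SNHG5 siRNA, against 46.9, 41.7 and 43.8 FPKM with control siRNA. TEAD4 followed, with 12.6, 14.9 and 12.1 FPKM with SNHG5 siRNA, against 10.6, 11.8 and 10.1 FPKM with control siRNA. TEAD3 averaged 6.09 ± 0.492 and 5.41 ± 0.839 FPKM with SNHG5 siRNA and control siRNA, and TEAD2 4 ± 0.586 and 3.57 ± 0.111 FPKM (SD, n = 3 each).

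On counts, TEAD1 (chromosome 11, 12674591 to 12944483, plus strand) had 415, 344 and 422 CPM with SNHG5 siRNA and 466, 421 and 464 CPM with control siRNA. The log2 fold change was -0.19 ± 0.066 (SE, adjusted p = 0.0253 by edgeR). The lowest value, 344 CPM, belongs to the library that stood apart, and without it the log2 fold change was -0.10 and no longer passed (adjusted p = 0.0565). The call also ended without control siRNA replicate 1 (-0.17, adjusted p = 0.0934) or replicate 3 (-0.17, adjusted p = 0.126). On FPKM it did not pass either, at -0.24 (adjusted p = 0.0505 by limma on log2(FPKM + 1)). With 0.1 added in place of 1 it had -0.25 (adjusted p = 0.0513), and with no filter on low values -0.24 (adjusted p = 0.13). Over all 17 alternatives the adjusted p of TEAD1 ranged from 6.47e-04 to 0.13. TEAD4 (chromosome 12, 2959330 to 3040673, plus strand) had 27.1, 29.2 and 26.7 CPM with SNHG5 siRNA and 25.3, 26.1 and 22.2 CPM with control siRNA. The groups did not overlap, yet the gap between them was only from 26.7 to 26.1 CPM. The log2 fold change of TEAD4 was 0.17 (95% interval 0.00096 to 0.34), which did not pass (adjusted p = 0.102). With the trend on GC content removed within each library it was 0.26 and passed (adjusted p = 0.00822). On FPKM it passed with a filter on low values (0.26, adjusted p = 0.0311 by limma on log2(FPKM + 1)). Without that filter it did not pass on FPKM (0.26, adjusted p = 0.0863 by limma). Over its 17 alternatives the adjusted p of TEAD4 ranged from 0.00822 to 0.317.

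TEAD2 (chromosome 19, 49340595 to 49362457, minus strand) had 16.2, 20.5 and 18 CPM with SNHG5 siRNA and 17.6, 18.4 and 16.2 CPM with control siRNA. TEAD3 (chromosome 6, 35473597 to 35497076, minus strand) had 19.7, 22.7 and 23.2 CPM with SNHG5 siRNA and 21.6, 24.7 and 19.5 CPM with control siRNA. Both overlapped widely between groups. Their log2 fold changes were 0.059 (95% interval -0.14 to 0.26, adjusted p = 0.655 by edgeR) and -0.0098 (-0.21 to 0.19, adjusted p = 0.944). The interval of TEAD2 includes a rise of the size seen in LATS2, and that of TEAD3 a fall of the size seen in TEAD1. Exons of TEAD2 overlap those of CD37 on the other strand.

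TEAD1 made up 64.8%, 55.2% and 64.3% of the summed FPKM of the 4 TEAD genes with SNHG5 siRNA, against 70.8%, 65.7% and 70.5% with control siRNA. The shares averaged 61.4% ± 5.42 and 69.0% ± 2.87 (SD, n = 3 each), with p = 0.1 by the exact 2-sided permutation test (adjusted 0.175), and no SNHG5 siRNA library reached the lowest control share on FPKM. The share of TEAD4 was 20.6%, 25.8% and 19.2% with SNHG5 siRNA and 16%, 18.5% and 16.3% with control siRNA, also without overlap (exact permutation p = 0.1, adjusted 0.175). The shares of TEAD2 and TEAD3 overlapped between the groups (exact permutation p = 0.3 and 0.2). The shift in TEAD1 depends on the unit. On counts not scaled to length its share differed by -2.34 percentage points, against -7.59 on FPKM. TEAD1 held a larger share of the counts than of the FPKM, so these differences do not start from the same level. On counts the groups overlapped (exact permutation p = 0.3). The lengths implied by the FPKM also differ between SNHG5 siRNA and control siRNA, at 10600 and 10200 bases for TEAD1 and 3590 and 4060 bases for TEAD3. Their part in the -7.59 points was not tested. On FPKM the difference was -4.47 without SNHG5 siRNA replicate 2. The summed FPKM of the family was 61.1, 57.7 and 63 with SNHG5 siRNA and 66.2, 63.5 and 62.2 with control siRNA, with overlap (exact permutation p = 0.2).

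**Figure D2:**
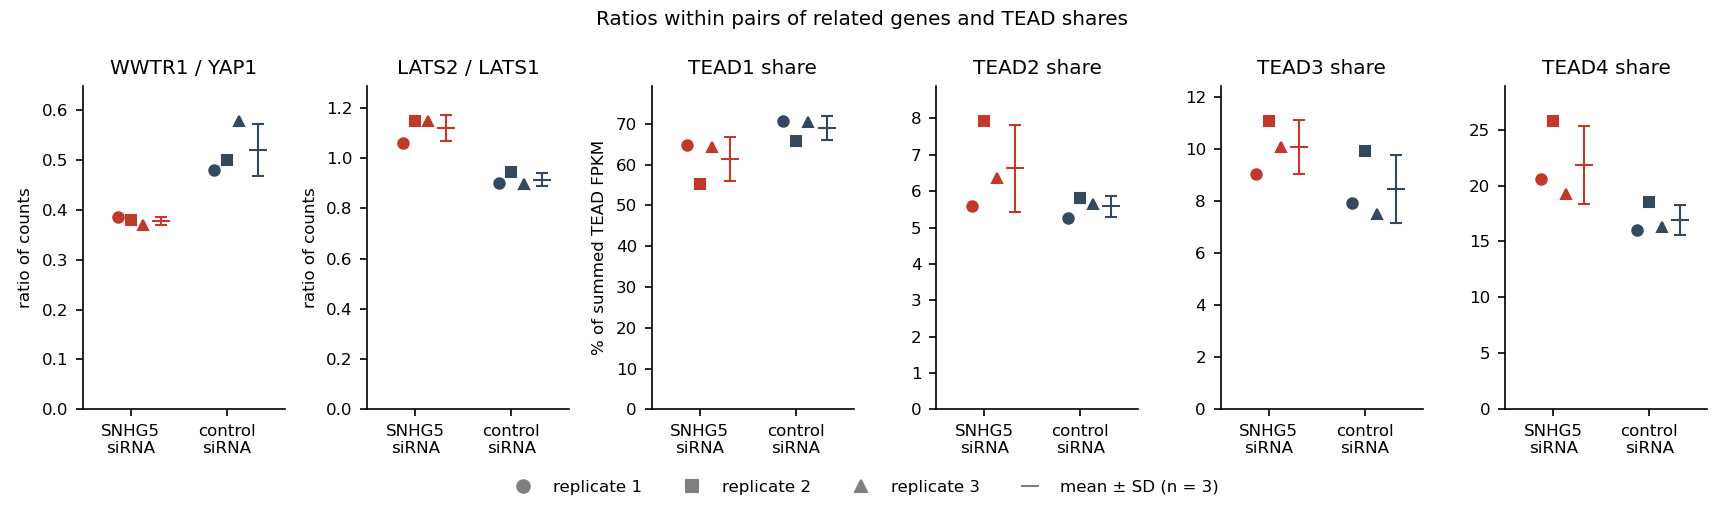
Ratios of counts of WWTR1 to YAP1 and of LATS2 to LATS1, and the share of each TEAD gene in the summed TEAD FPKM (percent), per library with the mean ± SD (n = 3), all axes from 0. The WWTR1 to YAP1 ratio was 0.369 to 0.385 with SNHG5 siRNA and 0.48 to 0.579 with control siRNA, and the TEAD1 share was 55.2% to 64.8% and 65.7% to 70.8%.

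LATS1 and LATS2 encode the kinases that phosphorylate YAP and TAZ. LATS2 (chromosome 13, 20973032 to 21061547, minus strand) had 65.3, 61.9 and 68.3 CPM with SNHG5 siRNA, against 55.9, 57.1 and 55.6 CPM with control siRNA. Every SNHG5 siRNA library was above every control library, and the log2 fold change was 0.21 ± 0.059 (SE, adjusted p = 0.00715 by edgeR). It passed under all 17 alternatives, at 0.17 to 0.25. LATS1 (chromosome 6, 149658153 to 149718256, minus strand) had 61.6, 54.1 and 59.3 CPM with SNHG5 siRNA and 62, 60.4 and 62 CPM with control siRNA. It was lowest in the library that stood apart, and its log2 fold change was -0.075 (95% interval -0.20 to 0.053, adjusted p = 0.346), with -0.021 without that library. The ratio of LATS2 to LATS1 counts was 1.06, 1.15 and 1.15 with SNHG5 siRNA and 0.902, 0.946 and 0.897 with control siRNA. On counts, which are not scaled to length, LATS2 was above LATS1 in each SNHG5 siRNA library and below it in each control library. Per length, LATS2 was above LATS1 in every library of both groups. It had 9.05, 9.02 and 9.52 FPKM with SNHG5 siRNA, against 5.18, 4.47 and 5.08 FPKM for LATS1. With control siRNA LATS2 had 7.65, 7.87 and 7.88 FPKM, against 5.53, 5.25 and 5.31 FPKM for LATS1. The difference in the ratio of counts was 0.29 on the log2 scale, with p = 0.1 by the exact 2-sided permutation test (adjusted 0.175). The counts of LATS1 may hold reads of AL358852.1, whose exons overlap on the other strand.

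The title of the series names miR-92a-3p, and LATS1 and LATS2 are the only 2 of the 10 genes with GTGCAAT, the match to bases 2 to 8 of that miRNA, in an annotated 3' UTR. Of 12291 tested genes with an annotated 3' UTR, 14.2% hold this word. The miRNA (RefSeq, GRCh38.p14; genes MIR92A1 at chr13:91351361-91351382 on the plus strand and MIR92A2 at chrX:134169544-134169565 on the minus strand) and the stretch around each match (GENCODE v29 transcripts) are shown because the same word stands in both kinase genes. Capitals mark the seed in the miRNA and its match in the transcripts, all 5′ to 3′.
hsa-miR-92a-3p: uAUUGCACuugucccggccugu
LATS1, chr6:149659597-149659626, minus strand: tttggactaagGTGCAATacagtagaagat
LATS2, chr13:20974430-20974459, minus strand: gagaaatctctGTGCAATaatgtaaaaaaa
In both transcripts an A follows the match. The match is a description of the sequence and does not show binding. With the same word in their 3' UTRs, LATS2 passed upward, at 0.21, and LATS1 did not pass, at -0.075; no miRNA level was measured in these libraries.

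ANKRD1 encodes a nuclear ankyrin-repeat protein and is a direct target of YAP and TEAD (chromosome 10, 90912096 to 90921276, minus strand). It was the highest of the 10 genes per length in both groups, at 96.4 ± 1.52 FPKM with SNHG5 siRNA and 189 ± 4.97 FPKM with control siRNA (SD, n = 3 each). Its CPM were 310, 314 and 319 with SNHG5 siRNA, against 596, 601 and 646 with control siRNA. The groups lay far apart, since the highest SNHG5 siRNA library had 319 CPM and the lowest control library 596 CPM. The log2 fold change was -0.97 ± 0.049 (SE, adjusted p = 2.29e-11 by edgeR), and it was -1.01 to -0.93 under the 17 alternatives.

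AMOTL2 encodes a protein of the angiomotin family, which binds YAP and LATS kinases at the membrane and is itself a YAP target (chromosome 3, 134355874 to 134375479, minus strand). Its CPM were 358, 335 and 354 with SNHG5 siRNA, against 532, 502 and 518 with control siRNA. Its groups did not overlap either. The log2 fold change was -0.57 ± 0.049 (SE, adjusted p = 3.68e-08 by edgeR). On FPKM the change was smaller, at -0.47, and still passed. The length implied by counts and FPKM averaged 6170 bases with SNHG5 siRNA and 6570 bases with control siRNA. Exons of AMOTL2 overlap the pseudogene RPL39P5 on the same strand, so some of its counts may be uncertain.

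ANKRD1 and AMOTL2, which fell most among the 10 genes, have the word GGAATG, the core of the element that TEAD proteins bind, or its reverse complement CATTCC, near a start site. In RefSeq promoters (250 bases before to 50 after the start, GRCh38.p14), 14% of 35116 promoters hold the word on either strand. Of the 10 genes, 8 have promoters in that table, 12 promoters in all, and 4 of these 12 hold it, 1 each of YAP1, LATS2, AMOTL2 and ANKRD1. TEAD1 and TEAD4 are not among the 8. Counted from the start site, ANKRD1 holds the word with its first base at -220 and at -128, and AMOTL2 holds it at -69 for 1 of its 2 starts. The promoters of ANKRD1 and AMOTL2 that hold the word are shown, as those of the genes with the largest changes among the 10. Capitals mark the word, and no occurrences overlap.
ANKRD1, chr10:90921038-90921337, minus strand: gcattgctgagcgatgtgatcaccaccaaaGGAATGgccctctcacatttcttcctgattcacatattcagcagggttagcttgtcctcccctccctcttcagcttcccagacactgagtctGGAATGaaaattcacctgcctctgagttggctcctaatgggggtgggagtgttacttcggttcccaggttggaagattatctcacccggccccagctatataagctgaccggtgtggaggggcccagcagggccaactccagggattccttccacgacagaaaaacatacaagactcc
AMOTL2, chr3:134374398-134374697, minus strand: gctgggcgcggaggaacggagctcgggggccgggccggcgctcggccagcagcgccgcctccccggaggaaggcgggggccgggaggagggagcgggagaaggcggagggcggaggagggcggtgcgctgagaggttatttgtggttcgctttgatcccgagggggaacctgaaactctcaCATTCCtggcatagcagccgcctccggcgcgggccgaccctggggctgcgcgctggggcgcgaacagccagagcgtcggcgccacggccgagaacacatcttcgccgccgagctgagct
The word also stands in promoters of YAP1 and LATS2, both of which rose. A match of letters is a description, and binding at these promoters was not measured.

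**Figure D3:**
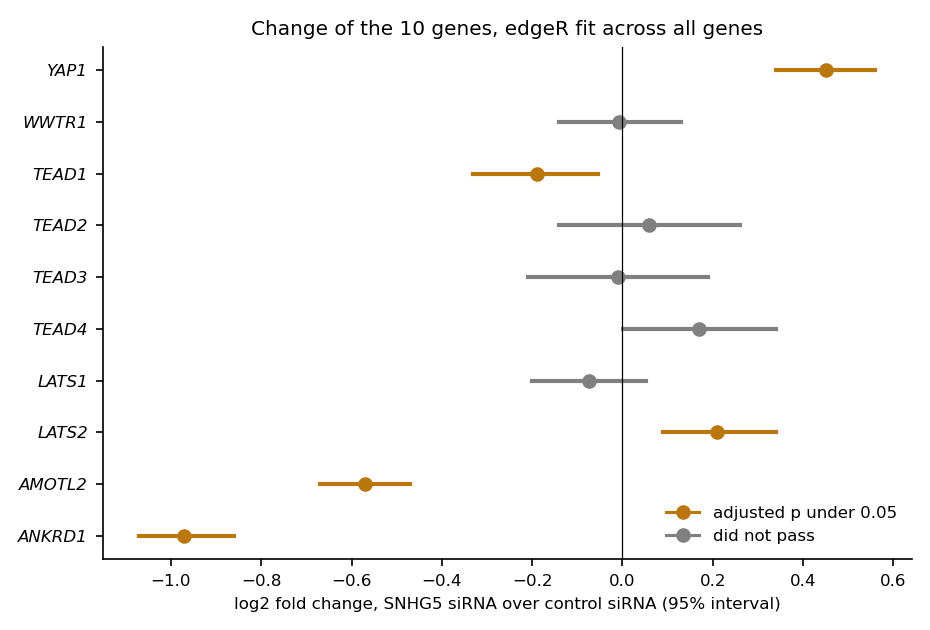
Log2 fold change of the 10 genes, SNHG5 siRNA over control siRNA, with 95% intervals from the edgeR fit across all genes. YAP1 (0.45) and LATS2 (0.21) lie above 0 and TEAD1 (-0.19), AMOTL2 (-0.57) and ANKRD1 (-0.97) below, while the interval of TEAD4 starts at 0.00096 and its adjusted p did not pass.

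Per length, the order of the 10 genes with SNHG5 siRNA was ANKRD1, AMOTL2 (56.6 ± 1.27 FPKM), TEAD1 (37.3 ± 4.77), YAP1 (29.9 ± 1.83), TEAD4 (13.2 ± 1.5), WWTR1 (12.2 ± 0.599), LATS2 (9.20 ± 0.281), TEAD3, LATS1 (4.91 ± 0.388) and TEAD2 (SD, n = 3). The ranges of TEAD4 and WWTR1 and of LATS1 and TEAD2 overlapped there, so the order within those pairs does not stand out from their spread. The ranges of TEAD1 and YAP1 met only through the TEAD1 level of replicate 2 (31.8 FPKM) and the YAP1 level of replicate 3 (32 FPKM), and TEAD1 was above YAP1 within each library. With control siRNA the order was the same down to YAP1 (AMOTL2 78.6 ± 2.76, TEAD1 44.2 ± 2.59 and YAP1 22 ± 0.234 FPKM), but WWTR1 (12.5 ± 0.801) stood above TEAD4 (10.8 ± 0.848). LATS2 (7.80 ± 0.132), TEAD3, LATS1 (5.36 ± 0.143) and TEAD2 followed, and only TEAD3 and LATS1 overlapped.

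Of 14 other tested genes of the kinase cascade, 2 rose, 1 fell and 11 did not pass, with a median log2 fold change of 0.014. Thus 21.4% passed, where 40.2% of all genes did, and without SNHG5 siRNA replicate 2 the shares were 35.7% and 44.4%; the difference from all genes was not tested. MAP4K4, a kinase that can phosphorylate LATS in parallel to the MST kinases, rose 1.36-fold, at 349 ± 13.4 CPM with SNHG5 siRNA and 257 ± 3.4 CPM with control siRNA (SD, n = 3 each; log2 fold change 0.44, adjusted p = 8.77e-07 by edgeR). STK38, a kinase related to LATS, rose 1.29-fold, at 118 ± 5.43 and 91.2 ± 2.01 CPM. STK4, which encodes the upstream kinase MST1, fell 1.20-fold, at 96.9, 81.2 and 96 CPM with SNHG5 siRNA and 116, 101 and 112 CPM with control siRNA (adjusted p = 0.00567). Without SNHG5 siRNA replicate 2, 5 of these genes passed, and STK4 had -0.18. On FPKM with no filter on low values STK4 did not pass (-0.27, adjusted p = 0.0667 by limma), and over its 17 alternatives the adjusted p ranged from 1.19e-04 to 0.0667. MAP4K1 was too low to be tested.

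Among regulators upstream of the cascade, 1 of 21 tested genes rose, 7 fell and 13 did not pass, with a median of -0.015. The 38.1% that passed is near the 40.2% of all genes. The angiomotins did not move together. AMOT had 21.7, 19.6 and 23.1 CPM with SNHG5 siRNA and 34.2, 29.9 and 33.4 CPM with control siRNA (log2 fold change -0.60, adjusted p = 1.42e-05 by edgeR). AMOTL1 had 95.2, 73.9 and 87.7 CPM with SNHG5 siRNA and 61, 58.7 and 56.1 CPM with control siRNA (0.55, adjusted p = 1.21e-05). AMOTL2 and AMOT thus fell and AMOTL1 rose, in each case without overlap between the groups. WWC2, a paralog of the LATS-activating scaffold KIBRA, fell 1.35-fold, at 129 ± 3.66 and 174 ± 6.02 CPM with SNHG5 siRNA and control siRNA. AJUBA, a LIM protein that restrains LATS, fell 1.32-fold, at 193 ± 10.5 and 255 ± 4.42 CPM.

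Of the genes for 14-3-3 proteins, which hold phosphorylated YAP in the cytoplasm, and for the enzymes that mark YAP for breakdown, 5 of 10 tested rose and 0 fell, with a median of 0.095, where 20.3% of all genes rose and 19.9% fell. All 5 that rose encode 14-3-3 proteins. Of the other 14-3-3 genes, YWHAZ, the most abundant, did not pass (0.045, adjusted p = 0.446 by edgeR), nor did SFN (-0.10, adjusted p = 0.876). YWHAH had 286, 315 and 299 CPM with SNHG5 siRNA and 215, 229 and 223 CPM with control siRNA (log2 fold change 0.43, adjusted p = 2.61e-06 by edgeR). YWHAG had 527, 519 and 531 CPM with SNHG5 siRNA and 414, 401 and 417 CPM with control siRNA (0.36, adjusted p = 5.74e-06). The other rises were small, with 0.16 for YWHAB (adjusted p = 0.0151), 0.15 for YWHAE (adjusted p = 0.0213) and 0.14 for YWHAQ, and they depended on the libraries and the scaling. With 1 library left out 2 to 5 genes of this list passed, with 2 without control siRNA replicate 1 or 2, and with upper quartile scaling 2 rose and 1 fell. CSNK1E, a casein kinase gene of this list, was not tested, since its counts averaged 0.113 and 0.0654 CPM with SNHG5 siRNA and control siRNA while its FPKM averaged 26.7 and 25.6, so the deposited tables disagree on its level.

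VGLL proteins compete with YAP for TEADs. VGLL1 was at 0 in every library, VGLL2 was too low to be tested, and 0 of the 2 tested genes passed by edgeR (0 at an unadjusted p under 0.05, and 0 by DESeq2). VGLL3 had 65.7 ± 4.57 and 61.6 ± 3.18 CPM with SNHG5 siRNA and control siRNA (log2 fold change 0.093, adjusted p = 0.263), and VGLL4 had 41.5 ± 1.17 and 37.8 ± 2.62 CPM (0.14, adjusted p = 0.116). Without SNHG5 siRNA replicate 2 both passed, at 0.15 and 0.16 (adjusted p = 0.0302 and 0.0456).

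Targets of YAP and TAZ other than the 10 genes moved in both directions. Of 18 tested genes of a published target signature, 4 rose, 6 fell and 8 did not pass (55.6% passed), with a median of -0.065, where 40.2% of all genes passed. Without SNHG5 siRNA replicate 2 the shares were 61.1% and 44.4%. CCN2, the matricellular protein also called CTGF and perhaps the most used YAP target, had 1030, 1190 and 1100 CPM with SNHG5 siRNA, against 1480, 1540 and 1670 CPM with control siRNA. The groups did not overlap, and the log2 fold change was -0.50 (adjusted p = 1.27e-06 by edgeR). CCN1, its paralog also called CYR61, had 803, 865 and 828 CPM with SNHG5 siRNA and 813, 837 and 849 CPM with control siRNA. These overlapped throughout, with a log2 fold change of -0.0019 (95% interval -0.099 to 0.096, adjusted p = 0.979), whose sign turned under several alternatives. The difference between CCN2 and CCN1 was not tested.

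Others of the signature had log2 fold changes larger in size than that of CCN2, though these differences between genes were not tested. GADD45A, which is also a p53 target, fell 2.25-fold, at 59.1 ± 4.25 and 133 ± 1.45 CPM with SNHG5 siRNA and control siRNA (SD, n = 3 each). TGFB2, a TGF-beta ligand, fell 1.54-fold, at 135 ± 5.60 and 208 ± 4.07 CPM. IGFBP3, an IGF-binding protein, rose 1.67-fold, at 281 ± 15.0 and 169 ± 10.7 CPM, and CCDC80, a secreted matrix protein, rose 1.6-fold, at 359 ± 12.9 and 225 ± 9.37 CPM. NT5E and MYOF were the other 2 that rose, and ASAP1, PTPN14 and ARHGEF17 fell with CCN2, GADD45A and TGFB2.

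A further 5 genes often listed as YAP targets gave 1 higher, 1 lower and 3 not passing, with a median of 0.034. The 40% that passed is near the 40.2% of all genes. THBS1, which encodes thrombospondin 1, fell 1.54-fold, at 3110 ± 169 and 4800 ± 93.1 CPM with SNHG5 siRNA and control siRNA. BIRC5, which encodes survivin and is also a cell cycle gene, rose 1.82-fold, at 195 ± 16.6 and 107 ± 2.75 CPM.

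**Figure D4:**
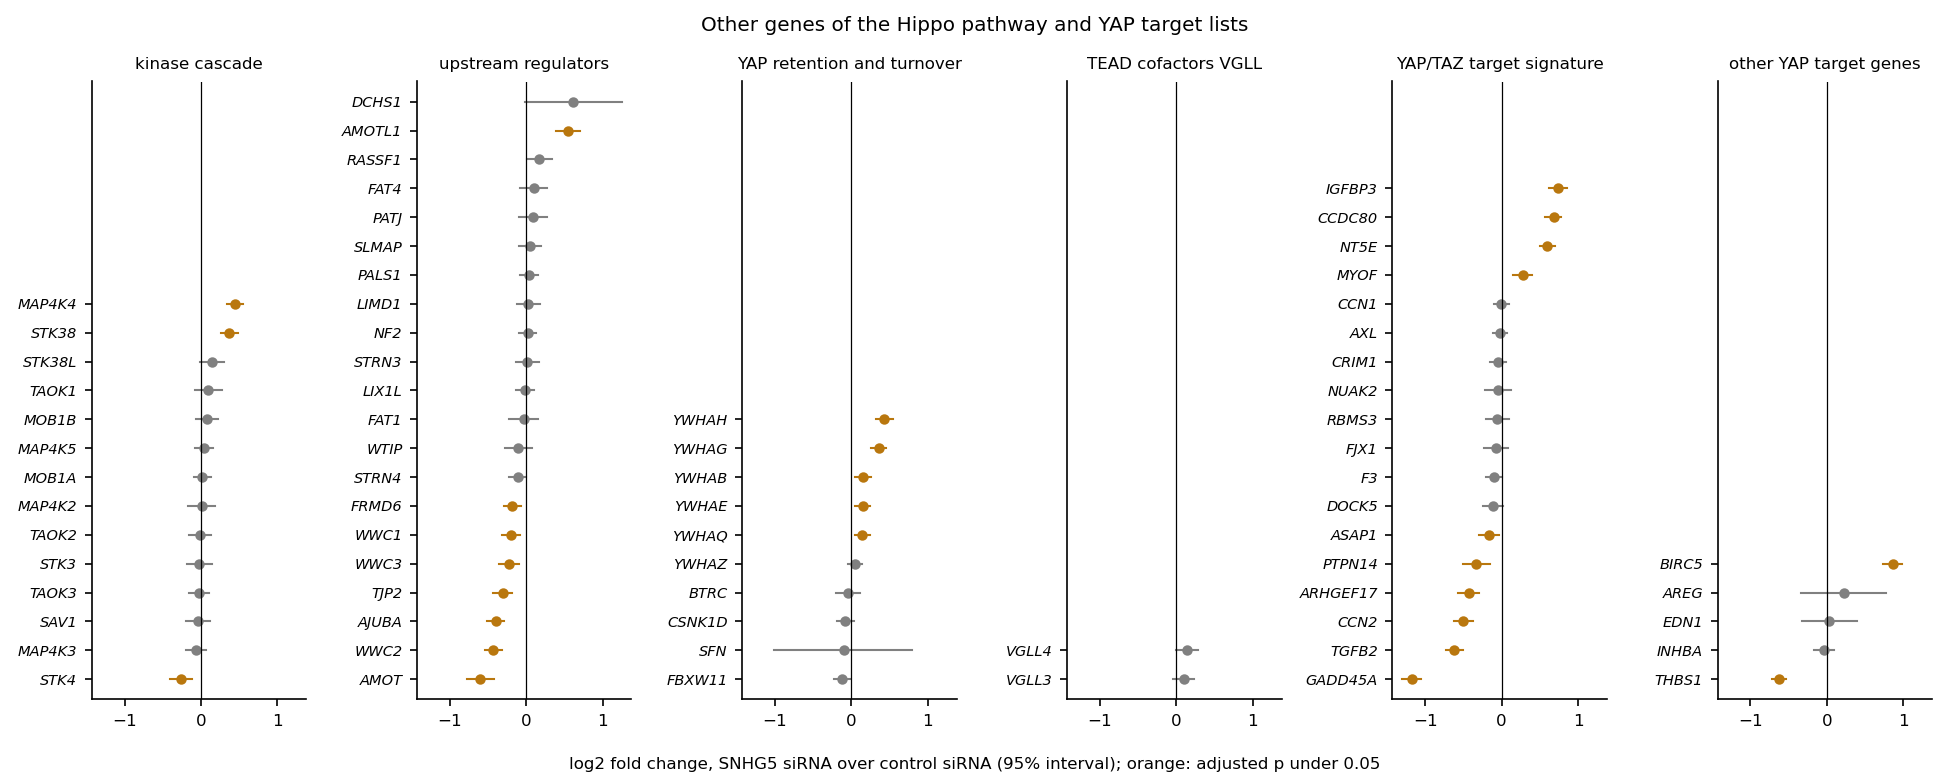
Log2 fold change, SNHG5 siRNA over control siRNA, with 95% intervals, of the other tested genes by list, sorted within each list; orange marks an adjusted p under 0.05. In the kinase cascade 3 of 14 genes passed, upstream of it 8 of 21, among YAP retention and turnover genes 5 of 10, among VGLL genes 0 of 2, in the target signature 10 of 18 and among the further targets 2 of 5.

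Across processing alternatives the 10 genes fell into those with steady and those with unsteady calls. YAP1, LATS2, AMOTL2 and ANKRD1 passed in the same direction under all 17 alternatives, with log2 fold changes of 0.41 to 0.48, 0.17 to 0.25, -0.61 to -0.47 and -1.01 to -0.93. TEAD1 passed under 11 of them and TEAD4 under 3, each in 1 direction. WWTR1, TEAD2, TEAD3 and LATS1 passed under none, and WWTR1, TEAD2 and TEAD3 took both signs.

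**Figure D5:**
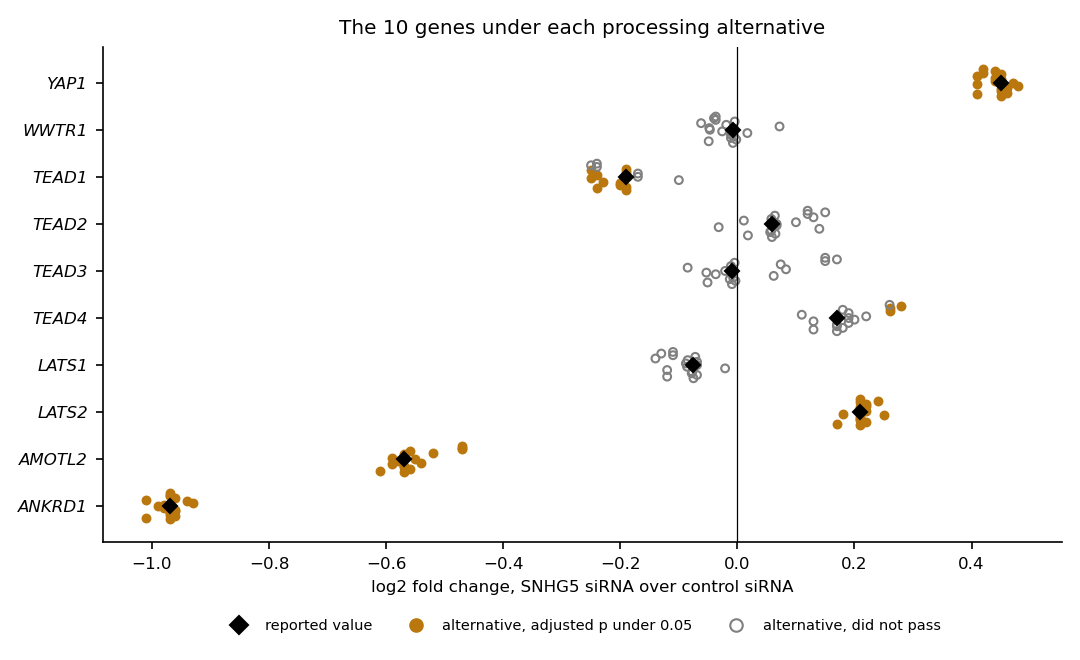
Log2 fold change of the 10 genes under the reported fit (black diamonds) and 17 alternatives (orange where the adjusted p was under 0.05, open grey where not). TEAD1 spans -0.25 to -0.10 with 11 of 17 alternatives passing, and TEAD4 spans 0.11 to 0.28 with 3 passing.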

How the data were processed

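Per the labels, mRNA libraries were made from 1 µg of total RNA of KGN cells with the SMARTER mRNA-seq kit. Reads were trimmed with Trimmomatic and build GRCh38 was used, per the submitters' processing notes; the aligner, counter, annotation and strand setting are details not given in the sources used here. Counts, as deposited, are whole numbers per gene name, not normalised by the authors. The deposited FPKM were scaled to length and library size by the authors, though the length they imply for a gene differs between libraries. Each library has 410 to 478 genes listed at 0 in one table but not in the other. Both tables held 0 columns of other samples. Some 27 names read as dates (0.257% of counts) and were kept in the tests.

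Counts were scaled by TMM and tested with edgeR 4.0.16 (R 4.3.3) by its quasi-likelihood test (2-sided, filterByExpr, 12508 genes), SNHG5 siRNA minus control siRNA, adjusted by the Benjamini-Hochberg method over all genes tested, with a threshold of 0.05. The fit was also run on simulated counts in which far fewer genes changed than passed here. That run therefore does not check the fit under the conditions of these data. Ratios and shares were compared by exact permutation tests. The 17 alternatives were other scalings, filters, DESeq2 1.42.0, limma 3.58.1 on FPKM, trends on gene length and GC content removed (for genes that GENCODE v29 names), a replicate block and each library left out. A count of 3, taken as a floor, was 0.136 to 0.165 CPM. The 10 genes and all lists were chosen with earlier results of these data known, so they are described by counts and medians without a list test. The 10 genes were always named, as were CCN1 and CCN2. From each other list up to 4 passing genes by size of change were named, or the 2 most abundant where fewer than 2 passed. YWHAQ, YWHAZ, SFN, CSNK1E, NT5E, MYOF, ASAP1, PTPN14 and ARHGEF17 were named after their values were seen. One gene among the further YAP targets is not reported here, and the counts of that list leave it out.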

Additional observations from a re-analysis of the deposited data

How the results depend on the processing

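The number of genes passing stayed between 3581 and 5714 under the 17 alternatives, against 5026, and that of the 10 genes at 4 to 6. With each replicate left out in turn these ranges were 3991 to 5608 and 4 to 5. Of the genes that passed, 39.9% were higher under upper quartile scaling, 50.5% under TMM and 56.3% to 59.8% on FPKM, and upper quartile scaling put the median log2 fold change of all genes at -0.046. Whether the replicate numbers pair the libraries is not settled. Same-numbered libraries had correlations of deviations of 0.0463, 0.13 and 0.0264, and differently numbered ones -0.116 to 0.0843. With the number as a replicate block 5714 genes and 5 of the 10 genes passed, and the WWTR1 to YAP1 difference of -0.455, the LATS2 to LATS1 difference of 0.29 and the TEAD1 share difference of -7.59 points had p = 0.25 by an exact sign-flip test, the smallest it allows. With 1 library left out those differences ranged from -0.51 to -0.375, from 0.269 to 0.328 and from -9.26 to -4.47.

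List counts that moved by over 1.5 times were those of the kinase cascade (3 to 5 with 1 library left out), of YAP retention and turnover (3 with upper quartile scaling, 2 to 5 with 1 library left out) and of VGLL genes (0 to 2 with 1 library left out). Signs turned only in named genes that did not pass. CCN1 had 0.0046 with no filter, 0.01 with the length trend removed, 0.0019 with DESeq2, 0.026 on FPKM and -0.028 to 0.024 with 1 library left out. TEAD3 had 0.074 with the GC trend removed, 0.15 to 0.17 on FPKM and -0.085 to 0.083 with 1 library left out. VGLL3 had -0.0048 and -0.0058 on FPKM. WWTR1 ranged from -0.048 to 0.072 and TEAD2 from -0.032 to 0.14 with 1 library left out. The causes were not tested. Counting error limits TEAD2, TEAD3 and TEAD4, with 295 to 600 counts per library, more than the other 7 genes.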
